A study of Homo sapiens with 16 samples.

Results

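The genes described here are the members of the human HOX clusters, that is, every gene whose symbol is HOXA, HOXB, HOXC or HOXD followed by a number, with antisense transcripts left out. The array annotation paired 47 probe sets with 27 such genes, out of 18132 genes in all. These were HOXA2, 10 genes of HOXB, 9 of HOXC and 7 of HOXD. Other genes of the clusters have no single-gene probe set in this annotation and were not examined, so HOXA is seen here by HOXA2 alone. Each gene was represented by its single-gene probe set with the highest mean signal over the 16 arrays, and 2 probe sets annotated to several genes with a HOX member among them were not used. Of the 27 genes, 23 passed a filter on dim signals and were tested, namely HOXA2, 9 of HOXB, 7 of HOXC and 6 of HOXD. The cells were HEK293, a line from human embryonic kidney, grown in DMEM with fetal bovine serum. All of them, controls included, carried a transfected expression plasmid of the aldosterone receptor (MR, mineralocorticoid receptor) for 24 h, at 500 ng per well. They were then exposed for 4 h to 100 nM deoxycorticosterone acetate (DOC, a steroid that activates this receptor) together with PMA at 10 nM (phorbol 12-myristate 13-acetate, which switches on protein kinase C in place of its natural activator diacylglycerol), to PMA alone, to DOC alone, or to vehicle, with 4 arrays in each group. The arrays of a group are labelled as biological replicates. Cells without the receptor plasmid were not analysed here, and the share of cells that took up the plasmid is not given in the sources used here.

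HOX proteins are homeodomain transcription factors that give cells along the body axis their regional identity. Their genes lie in 4 clusters in which gene order along the chromosome follows the order of expression from head to tail, so that low numbers mark anterior genes and high numbers posterior ones, and genes of the same number in different clusters (paralogs) are the closest relatives. Cultured lines tend to keep a fixed set of active HOX genes held in place by trithorax and Polycomb chromatin proteins. HOX proteins bind DNA together with cofactors of the PBX and MEIS families, and retinoic acid is a classical inducer of the anterior genes.

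The values are log2 RMA signals of the deposited table, in which a difference of 1 is a 2-fold change. Array medians lay between 4.91 and 4.96, and arrays of a group correlated at 0.991 to 0.997 over 12495 genes. In 3 arrays, replicate 2 of PMA, replicate 1 of DOC and replicate 2 of DOC plus PMA, the deviations from the group means resembled each other, at correlations of 0.425 to 0.554. All 8 transcripts listed as typical of HEK293, among them NEFL, NEFM, VIM, KRT8 and KRT18, lay above the background level defined below, and their mean was 9.51 to 9.66 on the PMA arrays and 8.95 to 9.15 on the vehicle arrays. Of these 8, 4 rose (NEFM by 2.51, LHX1 by 0.83, KRT8 by 0.79 and KRT18 by 0.77), NEFL fell by 0.45, and PAX2, VIM and CDH2 did not pass. LHX1 is also among the homeobox genes described at the end. Markers of other cell types at or below the background level were PTPRC and CD3E (leukocytes), CDH5 (endothelium) and COL1A2, COL3A1 and DCN (fibroblasts). The other 6 of the 12 markers listed lay above it, at 4.19 to 4.80. These were CD68 and CORO1A (leukocytes), PECAM1, TIE1 and VWF (endothelium) and COL1A1 (fibroblasts). With PMA CD68 rose by 0.43, CORO1A by 0.40, PECAM1 by 0.30 and TIE1 by 0.47, and VWF and COL1A1 did not pass. The mean of the 4 leukocyte markers was 3.72 to 3.82 on the PMA arrays and 3.48 to 3.68 on the vehicle arrays, and that of the 4 fibroblast markers was 3.19 to 3.39 with PMA and 3.02 to 3.14 with vehicle, while that of the 4 endothelial markers overlapped, at 4.06 to 4.28 with PMA and 3.80 to 4.08 with vehicle. Their part in the results below was not tested. In cultures such as these, fewer cells that express a gene and less RNA of it per cell cannot be told apart.

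Which HOX genes gave a signal at all was judged against 333 olfactory receptor genes, whose mean signals had a median of 2.58. Whether all of these receptor genes are silent in these cells was not tested. The background level, the 95th percentile of their mean signals, was 4.05. The filter on dim signals, the 40th percentile of each array, lay at nearly the same signal, 4.05 to 4.12. It was thus largely fixed in advance that the 4 HOX genes not tested were also the 4 at or below the background level. HOXB1 averaged 2.77 over the 16 arrays, HOXC11 3.40, HOXC12 2.19 and HOXD12 2.08. HOXB1 is a hindbrain gene in vertebrate embryos, and HOXC12 and HOXD12 belong to the posterior end of their clusters. The other 23 lay above the background level on average, and 17 of the 27 lay at or above the median of every array. With the 99th percentile of the olfactory receptor genes, 5.39, as a stricter limit, 16 of 27 remained above it, and HOXA2, HOXB5, HOXB8, HOXB13, HOXC5, HOXC10 and HOXD1 fell below. Of the 23 tested genes, 20 were at or above the 40th percentile of their array on all 16 arrays. HOXB5 was at or above it on 2 of 4 arrays of each PMA group, HOXB8 on 0 of 4 DOC plus PMA and 2 of 4 PMA arrays, and HOXC10 on 3 of 4 DOC plus PMA arrays, and all 3 genes were on every other array. No HOX gene was kept by 1 group alone. Signals of different probe sets are not compared with each other here, since each probe set has its own response.

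PMA against vehicle asks what the phorbol ester did to these genes without added steroid. Of the 23 HOX genes tested 14 were lower (60.9%), 1 was higher and 8 did not pass, with a median of −0.41 on the log2 scale. Over all 12495 genes 29.3% were lower and 17.7% higher, and the median was −0.04. With cyclic loess or a common median applied to the deposited values, 50.2% or 55.4% of all calls were higher, against 37.6% as deposited. In the same order 14 or 13 HOX genes were lower and 1 or 2 higher. The scaling within RMA stayed in both. The falls were found in HOXA2, in 6 of 9 genes of HOXB, in 5 of 7 of HOXC and in 2 of 6 of HOXD. HOXB7 and HOXC8 fell at least 2-fold, which is 2 of 23 members (8.70%) against 1.62% of all genes. All 4 PMA arrays lay below all 4 vehicle arrays for 12 of the 23 (52.2%, against 26.1% of all genes). Every gene was tested two-sided in limma with n = 4 per group and Benjamini-Hochberg adjustment over the 12495 genes, and differences are given ± standard error (SE).

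**Figure D1:**
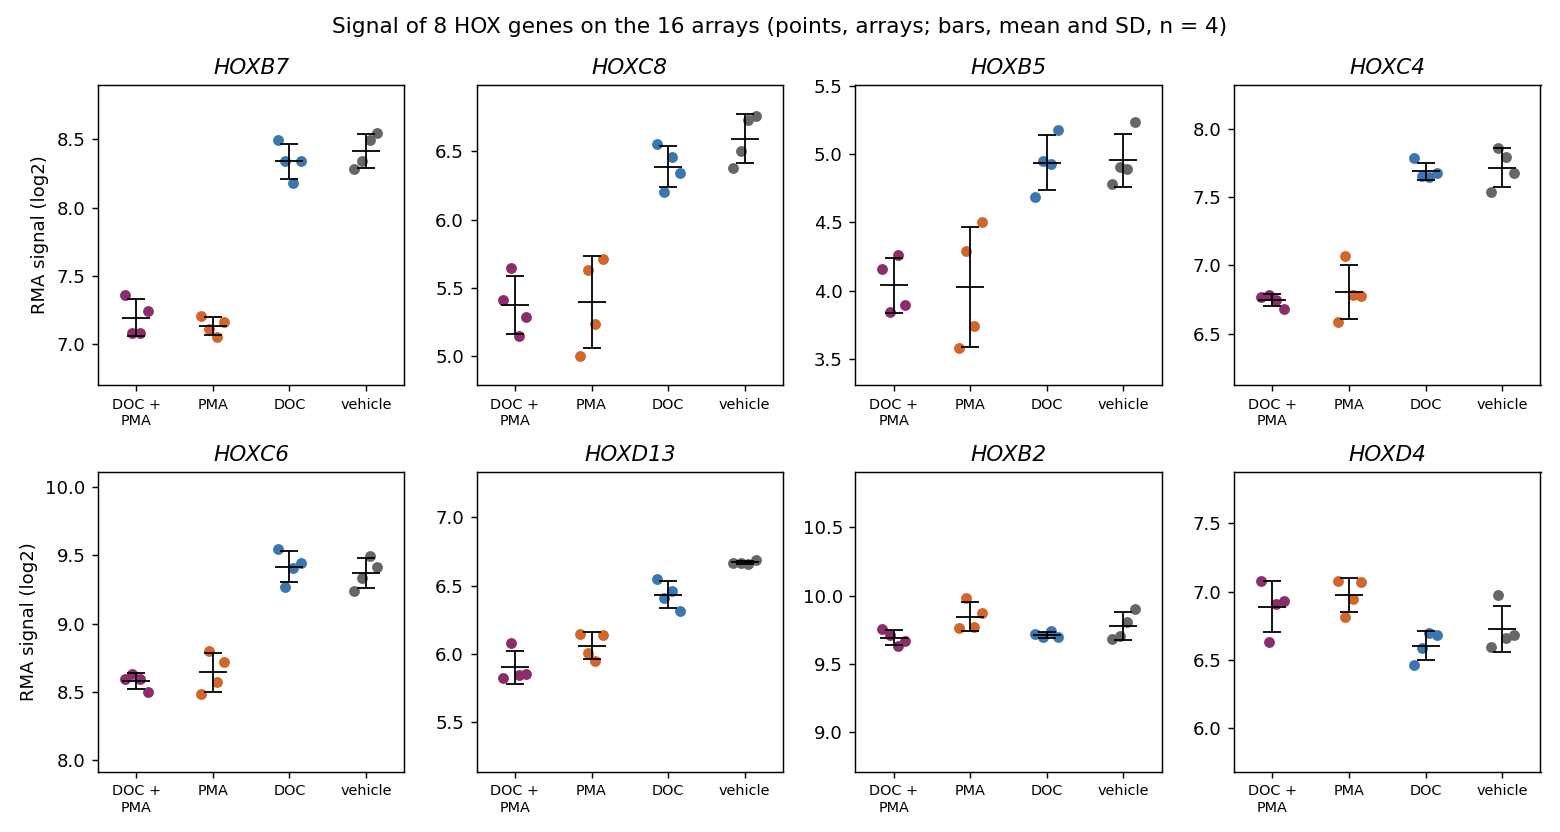
RMA signal (log2, vertical axis) of 8 HOX genes in the DOC plus PMA, PMA, DOC and vehicle groups, with each array as a point and the mean and SD (n = 4) as bars; every panel spans the same height of 2.2 log2 units. HOXB7, HOXC8, HOXB5, HOXC4, HOXC6 and HOXD13 lay lower in all arrays of both PMA groups than in every DOC and vehicle array. For HOXB2 the PMA arrays lay above the DOC plus PMA and DOC arrays and overlapped the vehicle arrays. HOXD4 lay higher with PMA on most arrays.

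In HOXB the falls ran through the middle of the cluster, from HOXB3 to HOXB8, and the flanking genes HOXB2 and HOXB9 did not pass. HOXB7, a trunk-region gene with known roles in proliferation of several cell types, had signals of 7.20, 7.11, 7.05 and 7.16 on the PMA arrays and 8.29, 8.34, 8.49 and 8.55 on the vehicle arrays. The groups did not overlap, and the difference of −1.28 ± 0.08 was a 2.43-fold fall (adjusted p = 8.75e-10), the largest among the HOX genes tested.

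HOXB5, which acts in neural crest and lung development in the mouse, had 3.58, 4.29, 3.74 and 4.50 with PMA and 4.78, 4.90, 4.89 and 5.24 with vehicle. It fell by 0.93 on the log2 scale (SE 0.17, adjusted p = 0.00022), every PMA array lay below every vehicle array, and the mean of 4.03 with PMA was at the background level, where a fall can be understated. HOXB6 had 5.34, 5.83, 5.90 and 5.74 with PMA and 6.09, 6.44, 6.45 and 6.42 with vehicle. Its difference was −0.65 ± 0.12 (adjusted p = 0.000228), again with no overlap. HOXB4, best known for promoting self-renewal of blood stem cells, had 6.14, 6.47, 6.11 and 6.02 with PMA and 6.72, 6.94, 6.68 and 6.67 with vehicle, a difference of −0.57 ± 0.09 (adjusted p = 4.9e-05). The highest PMA array, replicate 2, still lay below the lowest vehicle array.

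HOXB3, a hindbrain gene, had 7.14, 7.63, 7.04 and 7.08 with PMA and 7.78, 7.55, 7.79 and 7.83 with vehicle. It fell by 0.51 on the log2 scale (adjusted p = 0.00362), and PMA replicate 2 alone reached into the vehicle range. HOXB8, a gene used in the mouse by spinal and myeloid cells, had 4.06, 4.22, 3.86 and 4.20 with PMA and 4.14, 4.31, 4.45 and 4.66 with vehicle, with overlap and a difference of −0.31 ± 0.10 (adjusted p = 0.0156). The call was lost at −0.22 when vehicle replicate 4 was left out (adjusted p = 0.0663), at −0.23 when PMA replicate 3 was (adjusted p = 0.0651), and with arrays set to a common median (−0.22, adjusted p = 0.0550). HOXB9, which patterns the rib cage in the mouse, was at −0.20 ± 0.09 and did not pass (adjusted p = 0.0786), but passed without PMA replicate 2 (−0.30, adjusted p = 0.00305). HOXB2, a hindbrain gene, had 9.77, 9.98, 9.77 and 9.87 with PMA and 9.68, 9.71, 9.81 and 9.90 with vehicle. These ranges overlapped, and the 95% confidence interval of the difference ran from −0.07 to 0.21, but with a common median HOXB2 passed as higher (0.16, adjusted p = 0.0272). HOXB13 is described with its probe sets below.

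**Figure D2:**
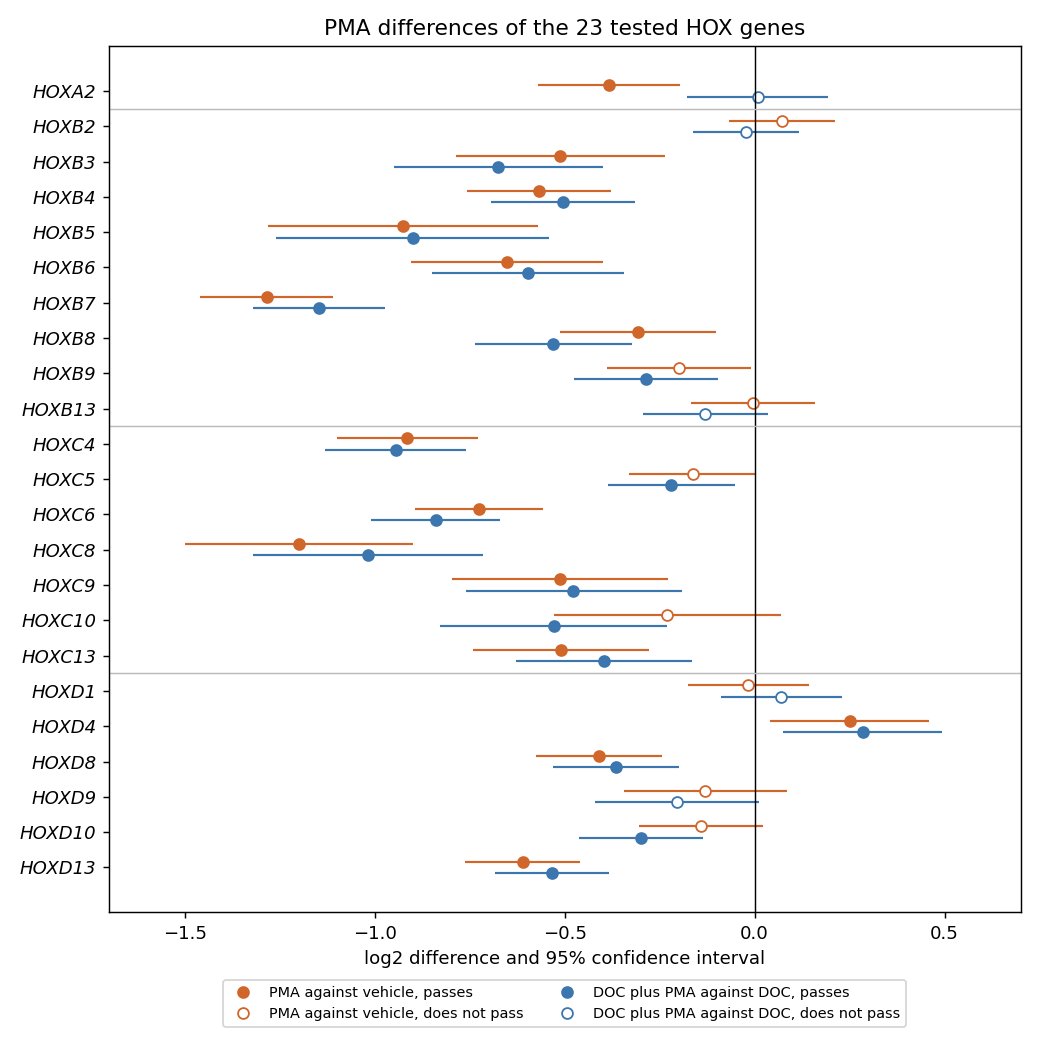
Differences of the 23 tested HOX genes for PMA against vehicle (orange) and DOC plus PMA against DOC (blue), on the log2 scale (horizontal axis), with 95% confidence intervals from limma; filled points passed at an adjusted p under 0.05, and genes run from top to bottom in the order of their clusters. Points lie farthest to the left at HOXB7, HOXC8, HOXC4 and HOXB5, near 0 at HOXB2, HOXB13 and HOXD1, and to the right of 0 at HOXD4.

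All 7 tested genes of HOXC had a negative difference with PMA, and 5 passed. HOXC8, which patterns thoracic vertebrae in the mouse, had 5.00, 5.63, 5.23 and 5.72 with PMA and 6.38, 6.51, 6.73 and 6.76 with vehicle. This was a 2.3-fold fall with no overlap (−1.20 ± 0.14, adjusted p = 2.06e-06). HOXC4 had 6.59, 7.07, 6.78 and 6.77 with PMA and 7.54, 7.86, 7.79 and 7.68 with vehicle. The groups were apart, at −0.91 ± 0.09 (adjusted p = 1.63e-07). HOXC6 had 8.48, 8.80, 8.57 and 8.72 with PMA and 9.24, 9.33, 9.50 and 9.41 with vehicle, a difference of −0.73 ± 0.08 (adjusted p = 8.22e-07) with no overlap.

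HOXC9, a thoracic gene, had 6.31, 6.59, 6.72 and 6.76 with PMA and 6.85, 7.23, 7.29 and 7.06 with vehicle, a difference of −0.51 ± 0.14 (adjusted p = 0.0046). HOXC13, needed for hair and nails, had 5.59, 5.94, 5.58 and 6.05 with PMA and 6.13, 6.18, 6.44 and 6.45 with vehicle, a difference of −0.51 ± 0.11 (adjusted p = 0.000976). For both genes every PMA array lay below every vehicle array. HOXC5 at −0.16 ± 0.08 (adjusted p = 0.101) and the lumbar gene HOXC10 at −0.23 ± 0.14 (adjusted p = 0.197) did not pass. HOXC5 passed without vehicle replicate 4 (−0.22, adjusted p = 0.0392).

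HOXC4, HOXC5 and HOXC6 are known to share a leading exon in some of their transcripts, so their probe sets can partly report the same primary RNA. RefSeq lists 1 start for HOXC4 and HOXC5, and the 250 bases before it, at chr12:54016638-54016887 on the plus strand of GRCh38.p14, are printed because 1 gene of this pair fell by 0.91 on the log2 scale with PMA and the other was at −0.16, with capitals reserved for matches to the motifs named further on.

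HOXC4 and HOXC5: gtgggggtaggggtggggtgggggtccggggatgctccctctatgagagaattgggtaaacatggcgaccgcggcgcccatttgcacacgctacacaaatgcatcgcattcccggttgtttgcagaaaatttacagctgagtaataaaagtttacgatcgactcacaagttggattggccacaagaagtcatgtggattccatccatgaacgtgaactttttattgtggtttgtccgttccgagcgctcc

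In HOXD 2 of 6 genes were lower (33.3%, near the 29.3% of all genes). HOXD4 alone was higher, as were 17.7% of all genes. HOXD13, which shapes digits and is mutated in human synpolydactyly, had 6.15, 6.01, 5.95 and 6.14 with PMA and 6.67, 6.67, 6.66 and 6.69 with vehicle. The vehicle arrays were almost equal, no PMA array reached them, and the difference was −0.61 ± 0.07 (adjusted p = 1.76e-06). HOXD8 had 7.38, 7.70, 7.49 and 7.63 with PMA and between 7.81 and 8.05 with vehicle, a difference of −0.41 ± 0.08 (adjusted p = 0.000338) without overlap.

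HOXD4 was the HOX gene that rose. It had 7.07, 6.81, 6.95 and 7.07 with PMA and 6.59, 6.97, 6.66 and 6.68 with vehicle, a difference of 0.25 ± 0.10 (adjusted p = 0.0475). Vehicle replicate 2 lay within the PMA range, and the adjusted p was the highest of the 15 calls. It did not pass in 14 of 25 other settings, at 0.21 to 0.26 with adjusted p = 0.0517 to 0.133. Among these were leaving out vehicle replicate 1, 3 or 4, PMA replicate 1, 3 or 4, DOC replicate 2, 3 or 4, or DOC plus PMA replicate 3 or 4, of which vehicle replicate 1 gave the smallest difference (0.21, adjusted p = 0.133). The others were no filter on dim signals, the replicate numbers as a block (adjusted p = 0.0617) and a fit to the PMA and vehicle arrays alone. HOXD10, a lumbar gene expressed in limbs and kidney of the embryo, was at −0.14 ± 0.08 (adjusted p = 0.145) and passed without PMA replicate 2 (−0.21, adjusted p = 0.0272). HOXD9 at −0.13 ± 0.10 and HOXD1 at −0.02 ± 0.08 did not pass. HOXA2, which sets the identity of the second branchial arch in the mouse, had 4.16, 4.15, 4.11 and 4.34 with PMA and 4.76, 4.54, 4.55 and 4.44 with vehicle, a difference of −0.38 ± 0.09 (adjusted p = 0.00165) without overlap.

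The upstream sequences of the gene that fell most in HOXD, of HOXD8, of the gene that rose and of HOXD1, which did not pass, are set side by side here. They are the 250 bases before the RefSeq start on the plus strand of GRCh38.p14, at chr2:176092471-176092720 for HOXD13, chr2:176129455-176129704 for HOXD8, chr2:176151300-176151549 for HOXD4 and chr2:176188418-176188667 for HOXD1.
HOXD13: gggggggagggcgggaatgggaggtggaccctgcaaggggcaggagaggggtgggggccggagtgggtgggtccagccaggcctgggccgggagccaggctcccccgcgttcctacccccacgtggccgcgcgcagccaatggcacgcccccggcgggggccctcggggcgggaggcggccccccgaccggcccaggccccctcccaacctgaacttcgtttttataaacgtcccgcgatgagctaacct
HOXD8: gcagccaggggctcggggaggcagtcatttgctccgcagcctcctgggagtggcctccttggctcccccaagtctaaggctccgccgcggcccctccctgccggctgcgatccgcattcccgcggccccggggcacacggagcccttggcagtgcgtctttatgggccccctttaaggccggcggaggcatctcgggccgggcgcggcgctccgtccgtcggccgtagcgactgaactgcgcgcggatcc
HOXD4: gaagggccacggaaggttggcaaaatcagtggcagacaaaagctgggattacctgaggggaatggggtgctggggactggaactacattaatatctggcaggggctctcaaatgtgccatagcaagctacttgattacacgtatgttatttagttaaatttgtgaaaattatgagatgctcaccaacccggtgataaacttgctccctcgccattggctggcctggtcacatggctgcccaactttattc
HOXD1: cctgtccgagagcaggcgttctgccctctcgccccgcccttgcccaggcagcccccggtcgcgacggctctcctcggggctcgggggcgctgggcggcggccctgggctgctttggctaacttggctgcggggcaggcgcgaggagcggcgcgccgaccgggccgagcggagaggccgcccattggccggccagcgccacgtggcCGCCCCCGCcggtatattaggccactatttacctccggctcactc

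In all, 10 of the 27 members matched a RefSeq promoter entry, as 9 distinct windows because HOXC4 and HOXC5 share theirs. Searched on both strands were the AP-1 motif TGANTCA, the cyclic AMP response element TGACGTCA, the EGR motif GCGNGGGCG, the PBX-HOX motif TGATNNAT and the steroid receptor half-site AGAACA. Capitals in the HOXD1 window mark its match to the EGR motif, on the minus strand, and no matches of different motifs overlapped. The AP-1 motif was in 0 of 9 windows, against 6.57% of 35116 human promoter windows of the same length, the cyclic AMP element in 0 of 9 (1.65% of all) and the steroid half-site in 0 of 9 (12.4% of all). The EGR motif was in 1 of 9, that of HOXD1 (8.41% of all), and the PBX-HOX motif in 2 of 9, those of HOXA2 and HOXB1 (6.47% of all). The window of HOXD13 was rich in G and C (74.0%), as were those of HOXD8 (72.4%) and HOXD1 (74.8%), while that of HOXD4 had 47.6% and that of HOXC4 and HOXC5 50.8%. The remaining windows had 47.2% (HOXA2), 57.2% (HOXB1), 64.0% (HOXD10) and 53.2% (HOXD12). A link of this share with the PMA differences was not tested. These are matches of letters in a short window, and their absence says nothing on whether a factor binds the gene.

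Paralogs that share a number are given here side by side. Among the paralogs numbered 4, the PMA difference was −0.91 ± 0.09 for HOXC4, −0.57 ± 0.09 for HOXB4 and 0.25 ± 0.10 for HOXD4. Among those numbered 8 it was −1.20 ± 0.14 for HOXC8, −0.41 ± 0.08 for HOXD8 and −0.31 ± 0.10 for HOXB8. Among those numbered 9, HOXC9 was at −0.51 ± 0.14, HOXB9 at −0.20 ± 0.09 and HOXD9 at −0.13 ± 0.10. Among those numbered 13, HOXD13 was at −0.61 ± 0.07, HOXC13 at −0.51 ± 0.11 and HOXB13, by its chosen probe set, at −0.00 ± 0.08. Of the measured genes numbered 5, HOXB5 was at −0.93 ± 0.17 and HOXC5 at −0.16 ± 0.08. Of those numbered 6, HOXC6 was at −0.73 ± 0.08 and HOXB6 at −0.65 ± 0.12. Of those numbered 10, HOXC10 was at −0.23 ± 0.14 and HOXD10 at −0.14 ± 0.08. Of those numbered 2, HOXA2, the only HOXA gene examined, was at −0.38 ± 0.09 and HOXB2 at 0.07 ± 0.07. By these chosen probe sets no cluster held the most negative value throughout. Other probe sets of HOXD9 (−0.64 ± 0.14) and HOXB13 (−1.55 ± 0.11) were lower, so the order can depend on the probe set. Differences between genes were not tested, since probe sets differ in how far they compress a change.

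Means over each cluster were also taken array by array. The mean deviation of the 9 tested HOXB genes from their vehicle means was −0.62 to −0.32 on the 4 PMA arrays and −0.08 to 0.09 on the 4 vehicle arrays. For the 7 HOXC genes it was −0.81 to −0.45 with PMA and −0.15 to 0.14 with vehicle, and for the 6 HOXD genes −0.25 to −0.11 with PMA and −0.03 to 0.03 with vehicle. None of these ranges overlapped between the groups, and PMA replicate 2 lay nearest to vehicle in HOXB and HOXC. With DOC plus PMA the ranges were −0.61 to −0.55 in HOXB, −0.72 to −0.61 in HOXC and −0.27 to −0.21 in HOXD, against −0.08 to 0.00, −0.14 to 0.03 and −0.11 to −0.05 with DOC in the same order. The 4 DOC arrays thus also lay just below the 4 vehicle arrays in HOXD (highest DOC array −0.055, lowest vehicle array −0.034). The DOC differences of its 6 genes ran from −0.24 for HOXD13 to 0.01 for HOXD9, and none passed. How often means of other gene sets separate between groups in this way was not examined.

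**Figure D3:**
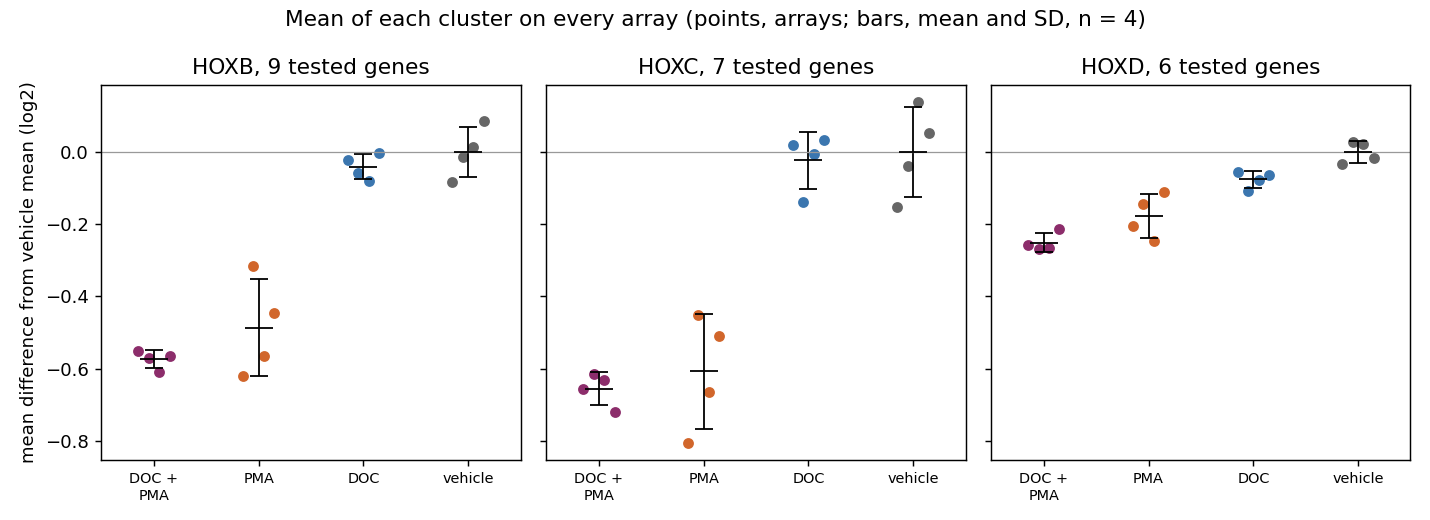
Mean log2 difference from the vehicle mean over the tested genes of HOXB (9), HOXC (7) and HOXD (6), with each array as a point and the mean and SD over 4 arrays as bars, in the order DOC plus PMA, PMA, DOC and vehicle. The arrays of both PMA groups lie below those of the DOC and vehicle groups in each cluster, by least in HOXD.

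HOXB13, the most posterior gene of its cluster and a marker of prostate and distal colon, depended on the probe set. Its probe set with the highest mean, 11727053, had 4.84, 4.82, 5.05 and 4.93 with PMA and 5.13, 4.88, 4.86 and 4.79 with vehicle, so that the gene did not pass (−0.00 ± 0.08, 95% confidence interval −0.17 to 0.16). Probe set 11727052, annotated to a RefSeq transcript of the gene and next to it by the mean over 16 arrays that made the choice (4.85, against 4.90 for the first), had 4.11, 4.03, 4.19 and 3.90 with PMA and 5.53, 5.75, 5.67 and 5.49 with vehicle. That is a difference of −1.55 ± 0.11 (adjusted p = 5.62e-09 over 28226 probe sets, limma), the most negative of the HOX probe sets tested. Probe set 11727054 had 3.81, 4.10, 4.32 and 3.92 with PMA and 4.96, 5.12, 5.12 and 5.25 with vehicle, a difference of −1.07 ± 0.14 (adjusted p = 1.32e-05), also without overlap, and its PMA mean of 4.04 was at the background level. The fourth, 11727051, was at −0.39 ± 0.13 (adjusted p = 0.02). In the DOC plus PMA group probe set 11727052 had 3.92, 3.95, 4.35 and 4.31, and in the DOC group 5.71, 5.52, 5.73 and 5.46, a difference of −1.48 ± 0.11 (adjusted p = 1.2e-08). This test of single probe sets was added after the values were seen.

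**Figure D4:**
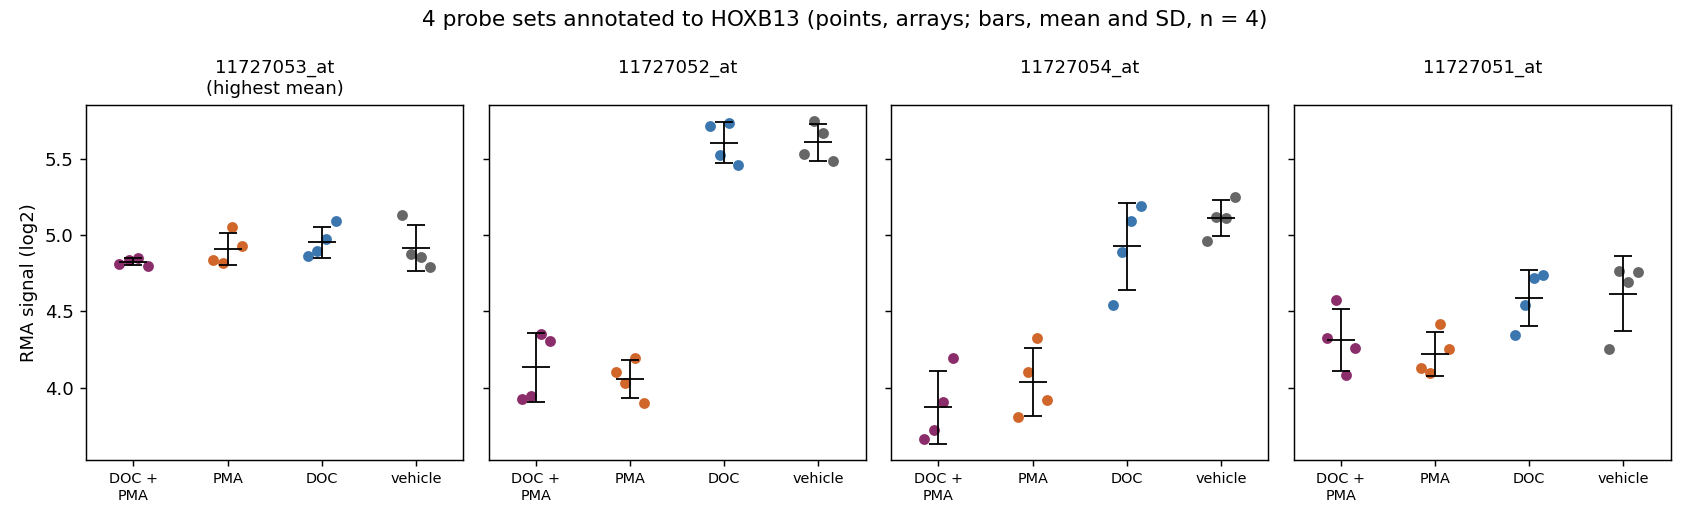
RMA signal (log2, vertical axis, same scale in all panels) of the 4 probe sets annotated to HOXB13 in the DOC plus PMA, PMA, DOC and vehicle groups, with each array as a point and the mean and SD (n = 4) as bars. The probe set with the highest mean was level across groups, while probe sets 11727052 and 11727054 lay lower in all arrays of both PMA groups than in all arrays of the DOC and vehicle groups.

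Of the 47 HOX probe sets, 34 passed the filter and were tested 1 by 1. With PMA 23 of them were lower and 0 higher, against 24.7% and 16.5% of all 28226 probe sets, and HOXD4 was then not past the threshold (adjusted p = 0.0607). Tested probe sets of a gene moved together in some genes and not in others. Both tested probe sets of HOXC6 fell (−0.73 ± 0.08 and −0.78 ± 0.08), as did both of HOXD13 (−0.61 ± 0.07 and −0.64 ± 0.09), of HOXD8 (−0.41 ± 0.08 and −0.51 ± 0.09) and of HOXB4 (−0.57 ± 0.09 and −0.39 ± 0.12). Neither probe set of HOXD10 passed (−0.14 ± 0.08 and −0.04 ± 0.10). HOXD9 had 1 probe set at −0.13 ± 0.10, which did not pass, and a dimmer one at −0.64 ± 0.14 (adjusted p = 0.00117). In HOXB3 2 of 3 tested probe sets fell and the third was at 0.11 ± 0.09. With the probe sets of each gene averaged, HOXB13 (−0.76, adjusted p = 2.33e-07) and HOXD9 (−0.38, adjusted p = 0.000635) passed as lower, 16 genes in all.

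DOC plus PMA against DOC asks whether PMA acted in the same way on steroid-treated cells, and it shares no array with PMA against vehicle. Here 17 of 23 HOX genes were lower (73.9%) and 1 was higher, with a median of −0.48, while 26.9% of all genes were lower and 15.7% higher. All arrays of the DOC plus PMA group lay below all arrays of the DOC group for 17 of 23 (73.9%, against 24.7% of all genes), HOXB13 among them and HOXC5 not. Across the 23 genes the differences in these 2 comparisons correlated at r = 0.926 (Spearman's rho 0.91, across genes that share probe sets and scaling), against r = 0.959 over all 12495 genes. In both comparisons 13 genes fell and HOXD4 rose, HOXA2 fell with PMA against vehicle only, HOXB9, HOXC5, HOXC10 and HOXD10 with DOC plus PMA against DOC only, and HOXB2, HOXB13, HOXD1 and HOXD9 passed in neither. Passing in 1 comparison and not in the other does not show a difference between them.

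HOXB7 had 7.36, 7.08, 7.08 and 7.24 with DOC plus PMA and 8.50, 8.34, 8.18 and 8.34 with DOC, a difference of −1.15 ± 0.08 (adjusted p = 4.36e-09). HOXC8 had 5.41, 5.65, 5.15 and 5.28 with DOC plus PMA and 6.55, 6.21, 6.46 and 6.34 with DOC, a difference of −1.02 ± 0.14 (adjusted p = 1.54e-05). HOXC4 had 6.77, 6.78, 6.75 and 6.68 with DOC plus PMA and 7.78, 7.66, 7.65 and 7.67 with DOC, a difference of −0.94 ± 0.09 (adjusted p = 1.23e-07). In all 3 genes the groups were well apart.

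HOXB5 was at −0.90 ± 0.17, HOXC6 at −0.84 ± 0.08, HOXB3 at −0.68 ± 0.13, HOXB6 at −0.60 ± 0.12, HOXD13 at −0.53 ± 0.07, HOXB8 at −0.53 ± 0.10, HOXB4 at −0.50 ± 0.09, HOXC9 at −0.48 ± 0.14, HOXC13 at −0.40 ± 0.11 and HOXD8 at −0.37 ± 0.08, all of which passed. The DOC plus PMA means of HOXB5, 4.04, and HOXB8, 3.93, lay below the background level, so that their falls can be understated. HOXC9 did not pass after cyclic loess (−0.35, adjusted p = 0.0612). HOXC10 had 4.28, 4.39, 4.24 and 3.78 with DOC plus PMA and 4.87, 4.61, 4.57 and 4.76 with DOC, a difference of −0.53 ± 0.14 (adjusted p = 0.00566). HOXD10 had 8.55, 8.64, 8.60 and 8.61 with DOC plus PMA and 9.03, 8.81, 8.85 and 8.91 with DOC, a difference of −0.30 ± 0.08 (adjusted p = 0.00444). Neither gene overlapped between these groups. Some genes had other tested probe sets, each fitted on its own in limma over 28226 probe sets. Those of HOXD10 (−0.04 ± 0.10, adjusted p = 0.807), HOXB4 (−0.22 ± 0.12, adjusted p = 0.183) and HOXD8 (−0.23 ± 0.09, adjusted p = 0.0662) did not pass. Those of HOXC6 (−0.95 ± 0.08) and HOXD13 (−0.49 ± 0.09) fell. Those of HOXB3 were at −0.43 ± 0.16 (adjusted p = 0.041) and −0.01 ± 0.09, which did not pass. HOXB9 fell by 0.29 on the log2 scale (adjusted p = 0.0155). HOXC5 was at −0.22 ± 0.08 (adjusted p = 0.0327), with overlap, and did not pass without DOC replicate 1 or 4 or DOC plus PMA replicate 1 or 4 (adjusted p = 0.0619 to 0.103), nor after cyclic loess, with a common median, array weights, no filter or without the 3 arrays that deviated alike (adjusted p = 0.0523 to 0.157). HOXD4 had 7.08, 6.63, 6.91 and 6.93 with DOC plus PMA and 6.46, 6.58, 6.69 and 6.68 with DOC, a difference of 0.28 ± 0.10 (adjusted p = 0.028) with overlap, and did not pass without DOC replicate 1 or 2 or DOC plus PMA replicate 1, 3 or 4 (0.22 to 0.28, adjusted p = 0.0564 to 0.104).

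DOC plus PMA against vehicle sets both agents against neither. It shares its arrays with the comparisons above and gave 16 of 23 HOX genes lower (69.6%) and 0 higher, against 26.3% and 17.5% of all genes, with a median of −0.45. Groups did not overlap for 15 of 23 (65.2%, against 26.3% of all genes). HOXB7 was at −1.22 ± 0.08, HOXC8 at −1.22 ± 0.14, HOXC4 at −0.97 ± 0.09 and HOXB5 at −0.92 ± 0.17. HOXA2 (−0.19 ± 0.09), HOXC5 (−0.10 ± 0.08) and HOXD4 (0.16 ± 0.10) did not pass. HOXC10 fell by 0.45 on the log2 scale (adjusted p = 0.015), a call that ended when vehicle replicate 4 (−0.37, adjusted p = 0.0592) or DOC plus PMA replicate 4 (−0.32, adjusted p = 0.0656) was left out. After cyclic loess HOXA2 passed as lower (−0.22, adjusted p = 0.0364) and HOXD4 as higher (0.29, adjusted p = 0.0499). HOXD4 also passed without DOC plus PMA replicate 2 (0.25, adjusted p = 0.0471), and HOXD9 as lower without DOC plus PMA replicate 4 (−0.28, adjusted p = 0.0308), which also made it pass for DOC plus PMA against DOC (−0.29, adjusted p = 0.0254).

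DOC against vehicle and DOC plus PMA against PMA ask what the steroid did to HOX genes, alone and in PMA-treated cells. No HOX gene passed in limma in either, as 0.120% of all genes did for DOC against vehicle and 0.384% for DOC plus PMA against PMA. At an unadjusted p under 0.05 there were 2 HOX genes in DOC against vehicle (8.70%, against 3.09% of all genes) and 5 in DOC plus PMA against PMA (21.7%, against 4.35% of all genes). The latter were HOXA2 (0.19) and, lower, HOXB2 (−0.16), HOXB9 (−0.21), HOXD10 (−0.17) and HOXD13 (−0.16). PMA replicate 2, among the arrays that deviated alike, was the highest PMA array for HOXB2, HOXB9 and HOXD10, but not for HOXA2 or HOXD13. The 23 differences ran from −0.24 to 0.12 for DOC alone, with 95% confidence intervals that stayed within −0.51 to 0.38, and from −0.22 to 0.19 in PMA-treated cells, within −0.52 to 0.38. HOXD13 had 6.55, 6.41, 6.46 and 6.31 with DOC and 6.67, 6.67, 6.66 and 6.69 with vehicle. All 4 DOC arrays lay below the 4 narrowly spread vehicle arrays, as they did for 0.568% of all genes, but the difference of −0.24 ± 0.07 did not pass (adjusted p = 0.774, limma). In PMA-treated cells HOXD13 was at −0.16 ± 0.07, which did not pass either. HOXB2 had 9.76, 9.71, 9.63 and 9.66 with DOC plus PMA and 9.77, 9.98, 9.77 and 9.87 with PMA. Its groups did not overlap, as was so in this direction for 0.728% of all genes, at −0.16 ± 0.07, which did not pass. HOXB7 was at −0.08 ± 0.08 with DOC alone and at 0.06 ± 0.08 with DOC in PMA-treated cells, and HOXC8 at −0.21 ± 0.14 and −0.02 ± 0.14.

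The interaction, the DOC difference with PMA minus that without, passed for 0 of 23 HOX genes in limma, against 0.0880% of all genes, and 1 HOX gene, HOXA2, had an unadjusted p under 0.05 (4.35%, near the 2.96% of all genes). Its DOC difference was 0.19 ± 0.09 with PMA and −0.20 ± 0.09 without.

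**Figure D5:**
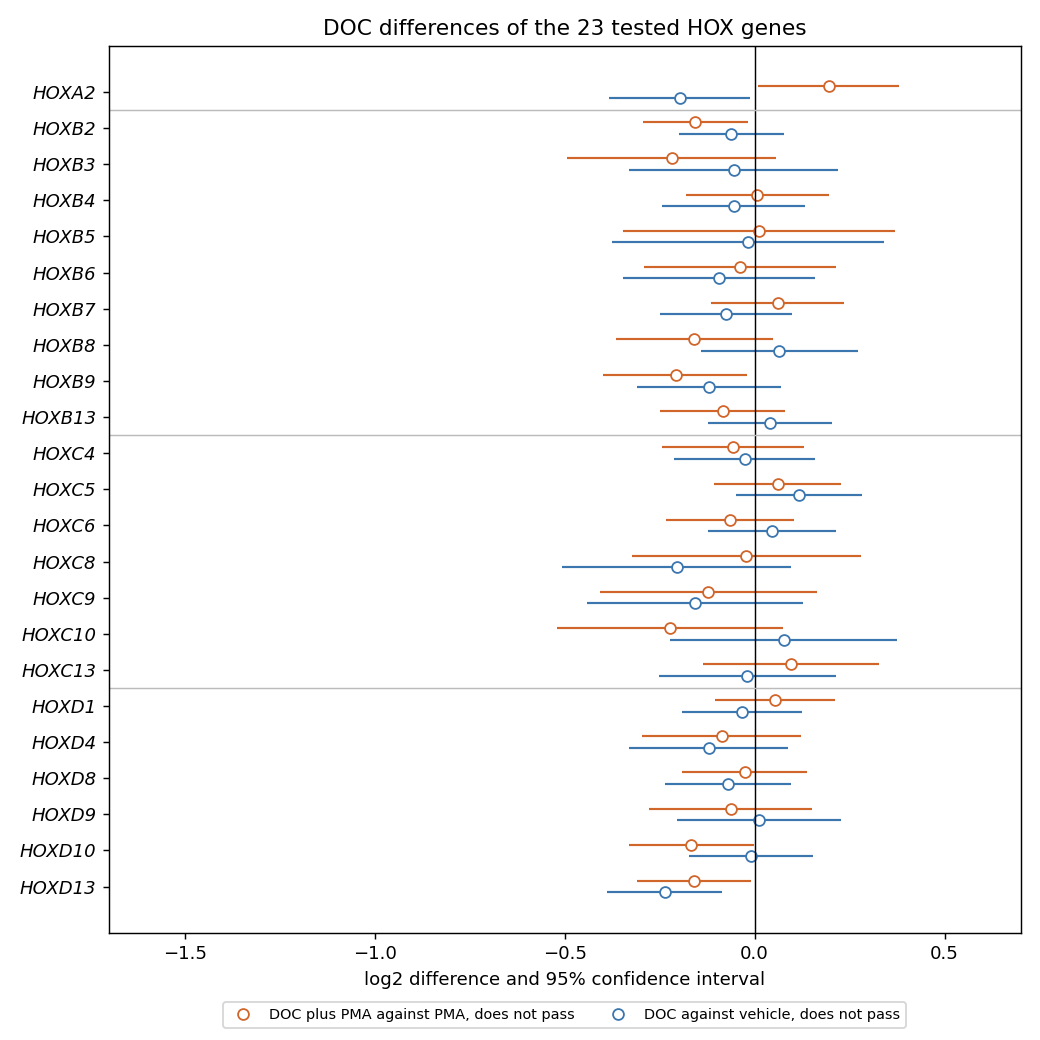
Differences of the 23 tested HOX genes for DOC plus PMA against PMA (orange) and DOC against vehicle (blue), on the log2 scale (horizontal axis, same range as for the PMA differences), with 95% confidence intervals from limma. All points are open because none passed, and all lie between −0.24 and 0.19.

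The proteins that work with HOX factors were looked at as a list of 9 cofactors, of which 8 were tested. With PMA 3 fell, 2 rose and 3 did not pass, against 29.3% lower and 17.7% higher over all genes, with a median of −0.02. MEIS1, a homeodomain partner of HOX and PBX proteins, had 4.79, 4.40, 4.43 and 4.51 with PMA and 5.97, 5.90, 5.99 and 6.20 with vehicle, a difference of −1.48 ± 0.11 (adjusted p = 4.56e-09). Its relative MEIS2 had 5.80, 6.05, 5.96 and 5.97 with PMA and 6.84, 7.05, 6.99 and 7.38 with vehicle, a difference of −1.12 ± 0.09 (adjusted p = 2.88e-08). Neither gene overlapped between the groups, and with DOC plus PMA against DOC both fell too, MEIS1 by 1.21 ± 0.11 and MEIS2 by 1.15 ± 0.09. PBX2 fell (−0.35 ± 0.06, adjusted p = 0.000102), while PKNOX1 (0.40 ± 0.06, adjusted p = 5.02e-05) and PKNOX2 (0.30 ± 0.10, adjusted p = 0.0235), of the same homeodomain class as MEIS, rose. No cofactor passed in limma for DOC against vehicle, DOC plus PMA against PMA or the interaction.

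Of 31 upstream regulators of HOX genes 25 were tested, and with PMA 10 fell (40%, against 29.3% of all genes), 7 rose (28%, against 17.7%) and 8 did not pass, with a median of 0.08. Among the members with large differences were KDM6B, a demethylase that removes the Polycomb mark from histone H3, which rose by 1.70 ± 0.13 (adjusted p = 5.8e-09), CBX2, a Polycomb protein that binds that mark, at −1.63 ± 0.11 (adjusted p = 1.17e-09), and the histone methyltransferase DOT1L, which rose by 1.41 ± 0.13 (adjusted p = 1.34e-07). The vehicle mean of KDM6B, 3.81, lay below the background level, so its rise can be understated. MEN1 at −0.61 ± 0.07 and ASH2L at −0.60 ± 0.06, both of trithorax-type methyltransferase complexes, fell. No regulator passed for DOC against vehicle, DOC plus PMA against PMA or the interaction.

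Of 34 homeobox genes outside the clusters 24 were tested, and with PMA 9 fell (37.5%, against 29.3% of all genes), 7 rose (29.2%, against 17.7%) and 8 did not pass, with a median of −0.09 beside −0.41 for the HOX genes. EN2, a midbrain-hindbrain gene, rose by 2.04 ± 0.10 (adjusted p = 1.3e-11), and POU3F2 (−1.77 ± 0.10), EMX2 (−1.27 ± 0.07), DLX6 (−1.02 ± 0.13) and LHX2 (−0.91 ± 0.11), which act in the developing brain or limb, fell. The PMA mean of EMX2, 3.98, lay below the background level, so its fall can be understated. TGIF1, a repressor of TGF-beta and retinoid signalling, was the only gene of these 4 lists that passed DOC against vehicle, DOC plus PMA against PMA or the interaction, rising by 0.51 ± 0.07 for DOC plus PMA against PMA (adjusted p = 0.000588, limma). Of 15 noncoding genes of the clusters, 1 was on the array by a single-gene probe set, HOXB-AS3. It was at −0.25 ± 0.16 with PMA, which did not pass, and at −0.40 ± 0.16 for DOC plus PMA against DOC (adjusted p = 0.048). It is transcribed from the other strand of the cluster, and whether its probes also report HOXB genes was not examined.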

How the data were processed

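Per the labels' protocols, 100 ng of RNA from each of the 16 cultures was turned into biotinylated cRNA by in vitro transcription. The deposited values are log2 RMA signals, made by the authors with Expression Console (Affymetrix) per the submitters' processing notes, which give no version. RMA sets all arrays to a common distribution, so a change of all genes 1 way cannot be seen. The table held 49293 probe sets and 0 columns of other samples.

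Gene names came from the annotation of the array platform (44988 probe sets with 1 gene, 1832 with several, 2473 with none), and 44961 of the first were matched to a current symbol by gene identifier. Probe sets at or above the 40th percentile of their array on at least 4 of 16 arrays were kept, 30613 in all (28226 with 1 gene), and the one with the highest mean stood for each of 12495 genes. Group means were fitted with limma 3.58.1 in R 4.3.3 (lmFit, eBayes) to all 16 arrays without a block. Genes were called at an adjusted p (Benjamini-Hochberg) below 0.05. The fit was tested on simulated data. Arrays have no read depth, and their number limits the precision, with a median SE of 0.0898 per difference and 0.127 for the interaction among the HOX genes.

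Deviations of same-number arrays correlated above 0.1 in 4 of 4 pairs for DOC plus PMA and PMA (0.157 to 0.549). For any other 2 groups they did so in at most 3 of 4 pairs. From the data alone, DOC plus PMA and PMA were therefore also compared with a replicate block, as an alternative. The differences and tests given for them are unpaired. Values are given in full for HOX genes that passed and as ranges for others. Of the other lists, the up to 5 largest passing differences for PMA against vehicle are named, with each member that passed a DOC comparison. The members and lists were chosen with earlier results of these data known. Alternatives were other filters, averaged probe sets, cyclic loess, a common median, the replicate block, array weights, the compared groups alone and leaving out arrays. Sequences are from RefSeq, GRCh38.p14.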

Additional observations from a re-analysis of the deposited data

Results flagged for a closer look

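Each group of 4 arrays was examined for an array far from the other 3, relative to the range of the group, for all 27 HOX genes. Of 108 such sets 5 held one past Dixon's 95% critical ratio, where chance gives about 1 in 20. For HOXC9 it was DOC plus PMA replicate 2 at 6.19, with the nearest array at 6.54. For HOXD13 it was DOC plus PMA replicate 2 at 6.08, with the nearest at 5.85. For HOXD12, which lay below background, it was PMA replicate 2 at 1.93. Vehicle replicate 1 of HOXB6 stood at 6.09, with the nearest at 6.42, and vehicle replicate 2 of HOXB4 at 6.94, with the nearest at 6.72. HOXB4, HOXB6, HOXC9 and HOXD13 passed for PMA against vehicle and for DOC plus PMA against DOC without any 1 of the 16 arrays. A difference between groups in the response of a HOX gene was not found by the interaction test.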

How the results depend on the processing

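The number of HOX genes that passed, in either direction together, stayed within 1.5 times in every setting run, and the few higher calls varied between 0 and 2. Leaving out each array in turn gave 13 to 17 genes for PMA against vehicle, 15 to 17 for DOC plus PMA against vehicle and 16 to 18 for DOC plus PMA against DOC, and 0 for the DOC comparisons and the interaction. The replicate block over all 16 arrays gave 15, 16 and 18 in the same order and 0 for the rest, and for DOC plus PMA against PMA a replicate block over these 2 groups alone, chosen after seeing the data, also gave 0. Of the calls the block ended that of HOXD4 for PMA against vehicle (0.25, adjusted p = 0.0617) and added HOXB9 (−0.20, adjusted p = 0.0417), and no other HOX call changed with it. Without the 3 arrays that deviated together, chosen after seeing the data, 17, 17 and 17 genes passed. With array weights HOXB9, HOXC5 and HOXD10 also passed for PMA against vehicle, 18 in all. With the 60th percentile filter only 15 HOX genes were tested, and 12, 13 and 14 passed. Without a filter HOXC11 passed as lower for DOC plus PMA against vehicle (−0.43) and against DOC (−0.46), at signals below background.

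Of 49 passing differences of single HOX genes, 43 passed in the same direction in every setting in which the gene was tested, and 6 did not, those of HOXB8, HOXD4 and HOXC10 and the HOXC5, HOXC9 and HOXD4 differences with DOC plus PMA against DOC. None turned round. Further scaling of the deposited values moved the balance of all calls for PMA against vehicle. As deposited 37.6% of them were higher, after cyclic loess 50.2% and with a common median 55.4%. The median of all genes moved from −0.04 to 0.01 and 0.05, and that of the HOX genes from −0.41 to −0.37 and −0.32, with 14, 14 and 13 HOX genes lower and 1, 1 and 2 higher. HOXB2 was the second that rose with a common median (0.16, adjusted p = 0.0272). Signals near background, as in HOXB5, HOXB8 and HOXB13, limit how large a fall can be seen.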
